A study of Mus musculus with 32 samples.

Results

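Liver RNA from mice that received corticosterone (cort) together with a high-protein diet (HPD) was compared with liver RNA from mice that received neither. The comparison was defined by the sample labels alone, as the 4 libraries of the Cort HPD group against the 4 libraries of the Veh NPD group, so that it covered 8 of the 32 libraries of the series. The question was what differs from the untreated state on the normal-protein diet (NPD) once both exposures are present. All mice were male C57BL/6 animals (C57BL/6J in the study's methods), 10 weeks old, and the labels name no transgene or deletion. Cort HPD mice drank cort and ate a diet with 60% of its energy from protein for 7 days, whereas Veh NPD mice drank the vehicle (veh) and ate a diet with 20% of its energy from protein over the same 7 days. Both diets were built on whey protein and supplied equal energy, so the HPD held less carbohydrate as well as more protein, and these changes cannot be told apart. The groups with a single exposure, Cort NPD (4 libraries) and Veh HPD (3 libraries used), entered the same fit and gave values side by side. Veh HPD replicate 4 was left out because the study removed it as an outlier.

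Corticosterone is the main glucocorticoid of mice and acts in hepatocytes through the glucocorticoid receptor, a transcription factor that raises enzymes of glucose production and amino acid breakdown and restrains many inflammatory genes. A diet rich in protein supplies the liver with amino acids, whose nitrogen is removed by the urea cycle and whose carbon feeds glucose production. Hepatocytes also make most plasma proteins, clear drugs and bile acids, and share the organ with Kupffer cells (the resident macrophages), endothelial cells and lymphocytes.

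Libraries were prepared by QuantSeq, which reads each transcript from its 3′ end, and the deposited values were raw counts per gene. Levels are given as CPM, a share of the library total after scaling by edgeR's TMM factor, and the order of values in each group is that of replicates 1 to 4. Total counts ranged from 8933307 to 12750233 in Veh NPD and from 13752553 to 17447524 in Cort HPD, so that the groups did not overlap in depth. Cort HPD replicate 1 stood apart from the other 3 libraries of its group. Its 10 most abundant genes held 42.2% of its counts against 32.8% to 34% in the others, and its TMM factor was 0.754 against 0.912 to 0.987. In that library the level of Alb, which encodes serum albumin, was 202006 CPM against 98845 to 125452 CPM, and Gm42418, a transcript that overlaps ribosomal RNA sequence, was at 307 CPM against 15459 to 23417 CPM. Hepatocyte identity was checked on 10 markers, which were detected in all 8 libraries and summed to 79011 to 110792 CPM in Veh NPD and 137659 to 245452 CPM in Cort HPD. Alb, at 43270.1 to 68968 CPM in Veh NPD, made up most of the sum, so it does not measure hepatocyte content. Of the 10 markers 4 were called higher and 0 lower. Fgb, a marker not called higher, was at 16441, 17148, 12482 and 17531 CPM in Veh NPD and at 16475, 8649, 8829 and 10826 CPM in Cort HPD.

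After removal of genes with few counts, 12391 genes were tested in 1 fit of the 15 liver libraries. The test was edgeR's quasi-likelihood test with Benjamini-Hochberg adjustment, and an adjusted p-value under 0.05 made a call. In Cort HPD against Veh NPD liver, 987 genes were higher (7.97% of those tested) and 920 were lower (7.42%). Counts of gene list members given below for this comparison stand beside these shares, or beside 15.4% called in either direction. A change of at least 2-fold was seen for 430 of the higher and 469 of the lower genes, and of at least 8-fold for 54 and 66. The median size of a called change was 0.949 on the log2 scale. The 4 and 4 libraries did not overlap in CPM for 1219 genes on the higher side (9.84% of those tested) and 1112 on the lower side (8.97%), of which 831 and 760 were called. Leaving out Cort HPD replicate 1 gave 985 higher and 1029 lower genes. Scaling by library totals without TMM factors moved the median of all genes to -0.19 on the log2 scale and gave 539 higher and 1500 lower genes, so that 26.4% of called genes were higher against 51.8% with TMM factors.

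Principal components of log2 CPM placed the groups apart in the same fit of 15 libraries. Component 1 held 30.9% of the variance and ran from -45.1 to -32.1 in Veh NPD and from 30.4 to 36.1 in Cort HPD. Component 2, with 13.4%, ran from -37.9 to -20.3 in Cort HPD and from 20.1 to 37.4 in Cort NPD, with Veh NPD between -1.2 and 13.1.

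**Figure D1:**
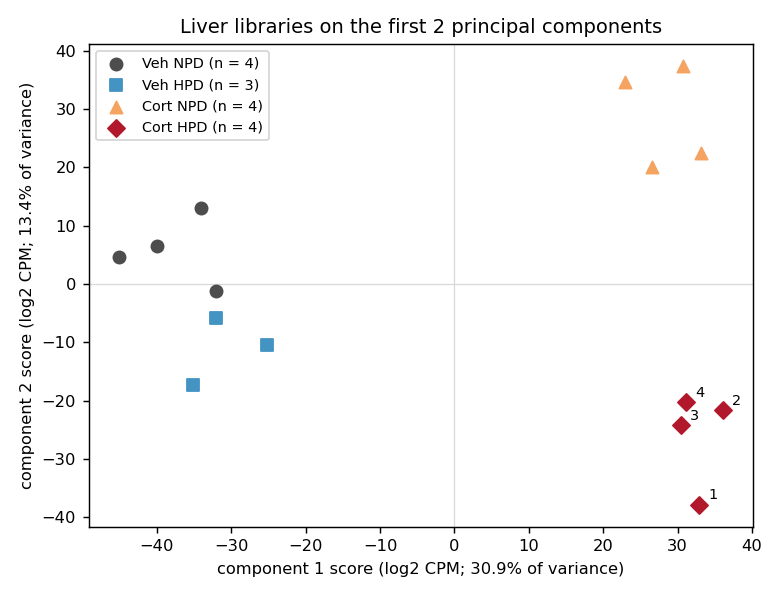
Scores of the 15 liver libraries on the first and second principal components of log2 CPM, 1 point per library, with the Cort HPD libraries numbered by replicate. The Cort HPD points lie between 30.4 and 36.1 on component 1, where Veh NPD lies between -45.1 and -32.1, and below all Cort NPD points on component 2.

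The 10 higher genes with the smallest p-values, among those whose libraries did not overlap, included Orm3, Lcn2 and Defb1. Orm3 (ENSMUSG00000028359, chromosome 4 from 63356162 to 63359511), which encodes a member of the orosomucoid family of acute phase proteins, was at 5.45, 6.58, 4.67 and 3.04 CPM in the Veh NPD libraries and at 74.4, 60.8, 69.4 and 59.9 CPM in the Cort HPD libraries. Each Cort HPD library was thus far above each Veh NPD library, and Orm3 rose (log2 fold change 3.75, SE 0.21, edgeR adjusted p = 1.3e-10). Lcn2 (ENSMUSG00000026822, chromosome 2 from 32384633 to 32388252), encoding lipocalin 2, a siderophore-binding protein, was at 5.21, 7.96, 7.35 and 3.55 CPM in the Veh NPD libraries and at 161, 214, 173 and 262 CPM in the Cort HPD libraries (log2 fold change 5.08, SE 0.33, edgeR adjusted p = 2.6e-08). Defb1 (ENSMUSG00000044748, chromosome 8 from 21776599 to 21795185), encoding a beta-defensin, was at 11.1, 5.73, 8.48 and 11.2 CPM in the Veh NPD libraries and at 61.5, 48.3, 50.8 and 41.8 CPM in the Cort HPD libraries (log2 fold change 2.46, SE 0.21, edgeR adjusted p = 3.7e-08). All 3 genes were low in every Veh NPD library. Slc3a1 (ENSMUSG00000024131, chromosome 17 from 85028376 to 85064236), which encodes a subunit of a cystine and dibasic amino acid transporter, was at 21.7, 17.4, 16.3 and 17.2 CPM in the Veh NPD libraries and at 162, 106, 101 and 99 CPM in the Cort HPD libraries (log2 fold change 2.68, SE 0.21, edgeR adjusted p = 1.8e-08). Replicate 1 was the highest of the Cort HPD libraries for Slc3a1, which also rose without it (log2 fold change 2.49). Cyp39a1, an oxysterol hydroxylase of bile acid synthesis, rose by 3.69, Gpx3, the plasma glutathione peroxidase, by 2.47, Cbr1, a carbonyl reductase, by 1.73, and the non-coding transcript E030018B13Rik by 4.72 on the log2 scale. Rasl10b, a gene of the Ras superfamily, had 3 or fewer counts in each Veh NPD library and was at 6.61, 9.24, 7.34 and 4.38 CPM in Cort HPD, at least 25.8-fold higher when Veh NPD is set to 3 counts per library. Set against Cort NPD, Orm3, Slc3a1 and Defb1 were also called higher (log2 fold changes 1.01, 1.76 and 2.05). Lcn2, Cyp39a1, Gpx3, Cbr1, E030018B13Rik and Rasl10b were not called there.

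The 10 lower genes with the smallest p-values, again among those whose libraries did not overlap, held 3 genes of antigen presentation by MHC class II, which are described further on. Igfbp2 (ENSMUSG00000039323, chromosome 1 from 72824503 to 72852474), which encodes a circulating binding protein of insulin-like growth factors, was at 244, 175, 271 and 206 CPM in the Veh NPD libraries and at 15.6, 20, 32.3 and 19.7 CPM in the Cort HPD libraries (log2 fold change -3.35, SE 0.21, edgeR adjusted p = 5.5e-10). Car3 (ENSMUSG00000027559, chromosome 3 from 14863512 to 14872523), encoding carbonic anhydrase 3, was at 3612, 2778, 3383 and 4409.8 CPM in the Veh NPD libraries and at 338, 146, 355 and 218 CPM in the Cort HPD libraries (log2 fold change -3.75, SE 0.27, edgeR adjusted p = 1.1e-08). Fabp1, the liver fatty acid-binding protein, was at 7946, 9197, 7376 and 6586 CPM in the Veh NPD libraries and at 1534, 677, 1035 and 1045 CPM in the Cort HPD libraries (log2 fold change -2.86, SE 0.25, edgeR adjusted p = 6.3e-08). Each Cort HPD value of these genes lay below each Veh NPD value, as the choice required. Nudt7, a peroxisomal hydrolase of coenzyme A, fell by 3.04 on the log2 scale. Slc22a7, an organic anion transporter, was at 11.8, 9.87, 12.5 and 11.1 CPM in the Veh NPD libraries and at 0.508, 0.0581, 1.07 and 0.519 CPM in the Cort HPD libraries (log2 fold change -4.43, SE 0.39, edgeR adjusted p = 9.4e-08), and Slc22a28, of the same family and with close copies, fell by 4.11. Cib3, a calcium-binding protein, was at 10.3, 6.47, 8.74 and 7.52 CPM in Veh NPD and at 3 or fewer counts in each Cort HPD library, at least 37.6-fold lower. Set against Cort NPD, Fabp1 and Slc22a7 were also called lower (log2 fold changes -1.04 and -3.51), whereas Igfbp2, Car3, Nudt7, Slc22a28 and Cib3 were not called.

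**Figure D2:**
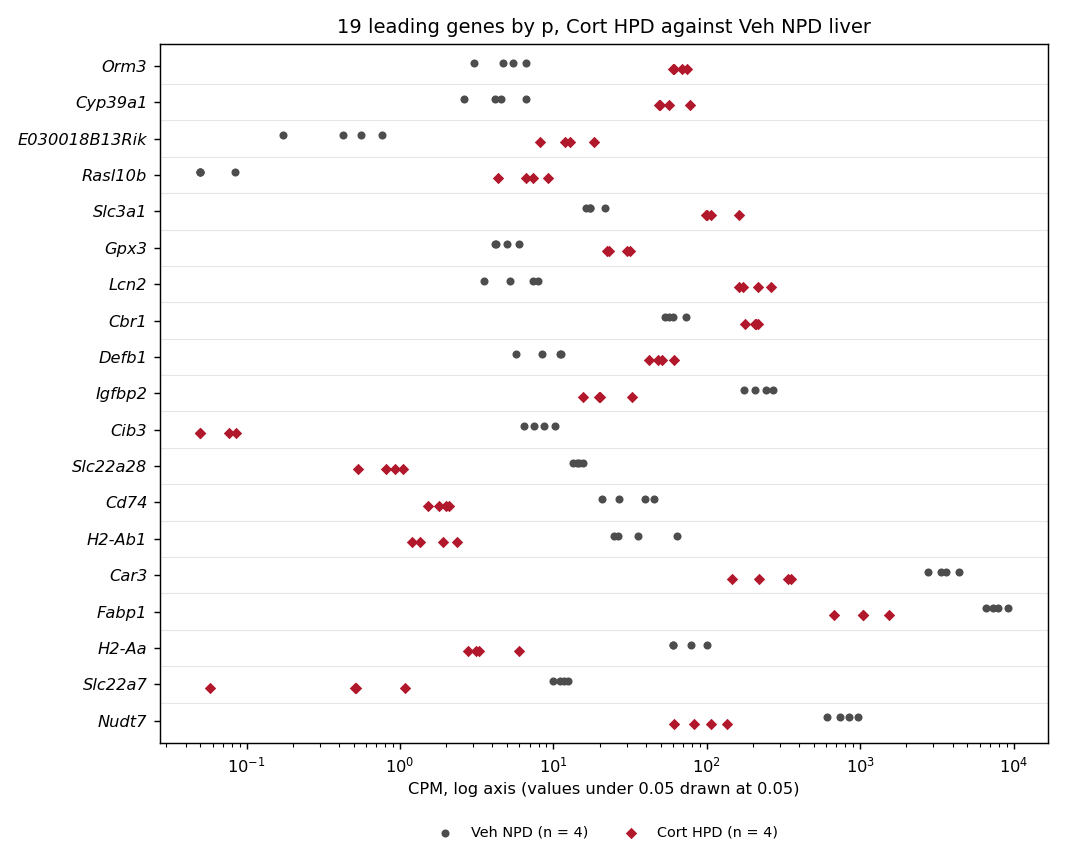
CPM in each Veh NPD and Cort HPD liver library (log axis, 1 point per library, 4 per group) for 9 of the 10 higher and the 10 lower genes with the smallest p-values, values under 0.05 CPM being drawn at 0.05. The points of the 2 groups do not overlap for any of these genes, as the choice required, with Orm3 at 3.04 to 6.58 CPM in Veh NPD and 59.9 to 74.4 CPM in Cort HPD.

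Most interferon-stimulated genes, which cells switch on through interferon receptors to limit viral growth, were higher. Of 42 listed, 40 were tested, 29 rose and 0 fell, against 7.97% higher among all genes, with a median log2 fold change of 1.63 where the median of all genes was 0. Without Cort HPD replicate 1, 27 of 39 rose, with a median of 1.35. Usp18, which removes the ubiquitin-like protein ISG15 from its targets, was at 8.13, 11.6, 9.25 and 10.6 CPM in the Veh NPD libraries and at 115, 71.1, 67.2 and 50.2 CPM in the Cort HPD libraries (log2 fold change 2.94, SE 0.36, edgeR adjusted p = 6.5e-05). The lowest Cort HPD library was more than 4-fold above the highest Veh NPD library. Ifih1, encoding the cytosolic double-stranded RNA sensor MDA5, was at 12.8, 12.8, 12.1 and 14.3 CPM in the Veh NPD libraries and at 38.9, 29.1, 28.9 and 28.8 CPM in the Cort HPD libraries (log2 fold change 1.27, SE 0.19, edgeR adjusted p = 8.2e-05). Mx1, an antiviral GTPase, was at 0.316, 0.212, 0.778 and 0.169 CPM in the Veh NPD libraries and at 4.66, 4.01, 3.36 and 3.86 CPM in the Cort HPD libraries (log2 fold change 3.38, SE 0.52, edgeR adjusted p = 0.00012). Dhx58, encoding the RNA helicase LGP2, rose by 1.7 on the log2 scale. In every one of these genes replicate 1 was the highest Cort HPD library, and the other 3 also lay above all Veh NPD libraries.

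Neither exposure alone gave a higher call in this list by edgeR's test. In Cort NPD against Veh NPD, where 6.84% of all genes were higher and 5.79% lower, 0 of the 40 rose and 5 fell (median -0.52), and in Veh HPD against Veh NPD 0 were called in either direction (median 0.92), although 23 were higher at an unadjusted p-value under 0.05, and DESeq2 called 3 higher and limma voom 0. These comparisons share the Veh NPD libraries with the main one. Tested directly against Cort NPD, Cort HPD liver had 35 of the 40 higher and 0 lower (median 2.36), where 3.08% of all genes were higher and 2.8% lower. Against Veh HPD, 6 of the 40 were higher and 0 lower (median 0.67). Among all 12391 genes tested there, 589 were higher and 637 lower (9.89% called in either direction). Usp18 was at 5.92, 10.4, 8.02 and 5.28 CPM in Cort NPD and at 50.4, 21.3 and 16.5 CPM in Veh HPD, and Mx1 at 0.231, 0.0862, 0.0756 and 0.0607 and 3.85, 0.777 and 0.945 CPM. Veh HPD replicate 1 was thus the highest of its group for both genes, and its Usp18 and Mx1 levels lay within the range of Cort HPD. Of the 40 genes 0 passed edgeR's interaction test of diet and cort, with 28 at an unadjusted p-value under 0.05, 7 called by DESeq2 and 0 by limma voom. Oas1c, an interferon-related gene outside these 40, did pass it (difference in log2 fold change 3.15, edgeR adjusted p = 0.044). The sums of T and NK cell, B cell and Kupffer cell markers were lower or overlapping in Cort HPD, and B cell markers ran from 6.15 to 11.1 CPM in Veh NPD and from 3.47 to 6.83 CPM in Cort HPD. Neutrophil markers summed to 4.76 to 19.6 CPM in Veh NPD and 7.12 to 28.4 CPM in Cort HPD, highest in replicate 1. Of the 4 neutrophil markers tested, 1 was called higher and 0 lower. The part of immune cell content in the interferon-stimulated genes was not tested.

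Promoter sequence was taken from RefSeq on GRCm38.p6, as the 250 bases before and 50 after each gene start, to show the letters that these genes share. The core of the interferon-stimulated response element was searched as GAAANNGAAA on either strand. It was found in a window of 20 of the 30 listed and tested genes that had one (66.7%), against 372 of 9473 tested genes with a window (3.93%). Among the 23 interferon-stimulated genes with a window that rose, 14 held it (60.9%), and among the 7 that were not called, 6 did (85.7%). A match is a description of these letters and not of a bound site. The 250 bases before the start of 4 risen members with the motif there are given, with the motif in capitals. The letters run 5′ to 3′ on the strand of the gene. These members had the smallest p-values among the windows considered for printing. Not all windows were considered, so a risen member with the motif and a smaller p-value may be missing. These 4 genes were chosen after their values were seen. For Ifit3, an antiviral RNA-binding protein with a near-identical neighbour, Ifit3b, the sequence is chr19:34583279-34583528 on the + strand. Igtp (chr11:58199306-58199555, + strand) and Irgm1 (chr11:48871421-48871670, - strand) encode interferon-inducible GTPases, and Trim30a (chr7:104465194-104465443, - strand) encodes a member of the tripartite motif family. In Irgm1 a pair of matches overlaps.
Ifit3: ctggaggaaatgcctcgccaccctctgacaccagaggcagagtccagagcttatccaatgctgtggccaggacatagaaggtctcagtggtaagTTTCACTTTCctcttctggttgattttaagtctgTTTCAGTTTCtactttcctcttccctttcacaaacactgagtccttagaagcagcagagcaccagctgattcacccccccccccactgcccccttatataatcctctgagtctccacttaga
Igtp: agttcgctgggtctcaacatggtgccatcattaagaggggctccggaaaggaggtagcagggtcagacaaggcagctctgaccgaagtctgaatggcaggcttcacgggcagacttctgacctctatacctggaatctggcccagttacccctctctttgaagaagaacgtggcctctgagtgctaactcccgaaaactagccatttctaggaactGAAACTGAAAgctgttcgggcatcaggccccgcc
Irgm1: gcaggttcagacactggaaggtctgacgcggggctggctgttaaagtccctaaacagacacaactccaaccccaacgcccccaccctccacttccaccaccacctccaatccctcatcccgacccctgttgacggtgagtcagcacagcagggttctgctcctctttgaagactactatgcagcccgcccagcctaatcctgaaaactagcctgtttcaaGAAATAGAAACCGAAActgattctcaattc
Trim30a: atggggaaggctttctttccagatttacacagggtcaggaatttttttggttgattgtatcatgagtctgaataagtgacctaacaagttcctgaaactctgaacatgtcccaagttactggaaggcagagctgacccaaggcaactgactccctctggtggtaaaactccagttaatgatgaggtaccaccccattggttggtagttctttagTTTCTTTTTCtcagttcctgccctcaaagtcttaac

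Ifit3, whose promoter holds the motif in 2 places, was at 13.2, 20.2, 16.8 and 26.3 CPM in the Veh NPD libraries and at 453, 194, 164 and 126 CPM in the Cort HPD libraries (log2 fold change 3.62, SE 0.52, edgeR adjusted p = 0.00058). Igtp was at 20.1, 29.5, 18.8 and 14.4 CPM in the Veh NPD libraries and at 155, 119, 89.7 and 91 CPM in the Cort HPD libraries (log2 fold change 2.46, SE 0.4, edgeR adjusted p = 0.0012). Irgm1 and Trim30a rose by 1.84 and 1.54 on the log2 scale. For all 4 genes each Cort HPD library lay above each Veh NPD library, and the reads of Ifit3 may be split with its neighbour.

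MHC class II genes were lower. Of the 9 tested genes for MHC class II presentation, by which antigen-presenting cells show peptides to helper T cells, 7 fell and 0 rose, against 7.42% lower among all genes, with a median of -3.41. Without Cort HPD replicate 1, 7 also fell, and with no filter on low counts 8 of 14 did. H2-Ab1 (ENSMUSG00000073421, chromosome 17 from 34257689 to 34269419), a beta chain of the class II molecule, was at 35.5, 63.6, 26.2 and 25 CPM in the Veh NPD libraries and at 1.19, 1.34, 1.91 and 2.37 CPM in the Cort HPD libraries (log2 fold change -4.46, SE 0.31, edgeR adjusted p = 6.7e-09). Cd74, the invariant chain that guides class II molecules, was at 39.3, 45.2, 26.9 and 20.6 CPM in the Veh NPD libraries and at 1.52, 1.8, 1.99 and 2.08 CPM in the Cort HPD libraries (log2 fold change -4.15, SE 0.28, edgeR adjusted p = 3.7e-09). The alpha chain gene H2-Aa fell by 4.32 and H2-Eb1 by 4.57, and no Cort HPD library reached 6 CPM for any of these 4 genes. In bulk liver fewer cells of a type and less RNA per cell cannot be told apart. These levels overlapped those of Cort NPD, where H2-Ab1 was at 2.46, 1.38, 1.74 and 1.94 CPM, and the difference of H2-Ab1 between Cort HPD and Cort NPD did not pass edgeR's test (log2 fold change -0.15, SE 0.34, edgeR adjusted p = 0.85). Genes of MHC class I and the immunoproteasome had 2 higher and 1 lower of 20 (15% called, against 15.4% of all genes). The 2 higher became 4 without Veh NPD replicate 3 and 1 without Veh NPD replicate 1 or 2 or Cort HPD replicate 3. B2m, the light chain of class I, was at 2412, 2728, 3431 and 3331 CPM in the Veh NPD libraries and at 4418, 4119, 6025 and 4012 CPM in the Cort HPD libraries (log2 fold change 0.64, SE 0.18, edgeR adjusted p = 0.018), a call that was lost without Cort HPD replicate 3 (log2 fold change 0.49), without Veh NPD replicate 1 (0.55), without Veh NPD replicate 2 (0.6), under library totals (0.46) or with all 16 liver libraries (0.65). The class I gene H2-Q7, which has near-identical copies, fell by 0.53, and Erap1, which trims peptides for class I, rose by 0.75. Against Cort NPD, 10 of the 20 class I genes were higher and 0 lower, where 3.08% and 2.8% of all genes were.

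**Figure D3:**
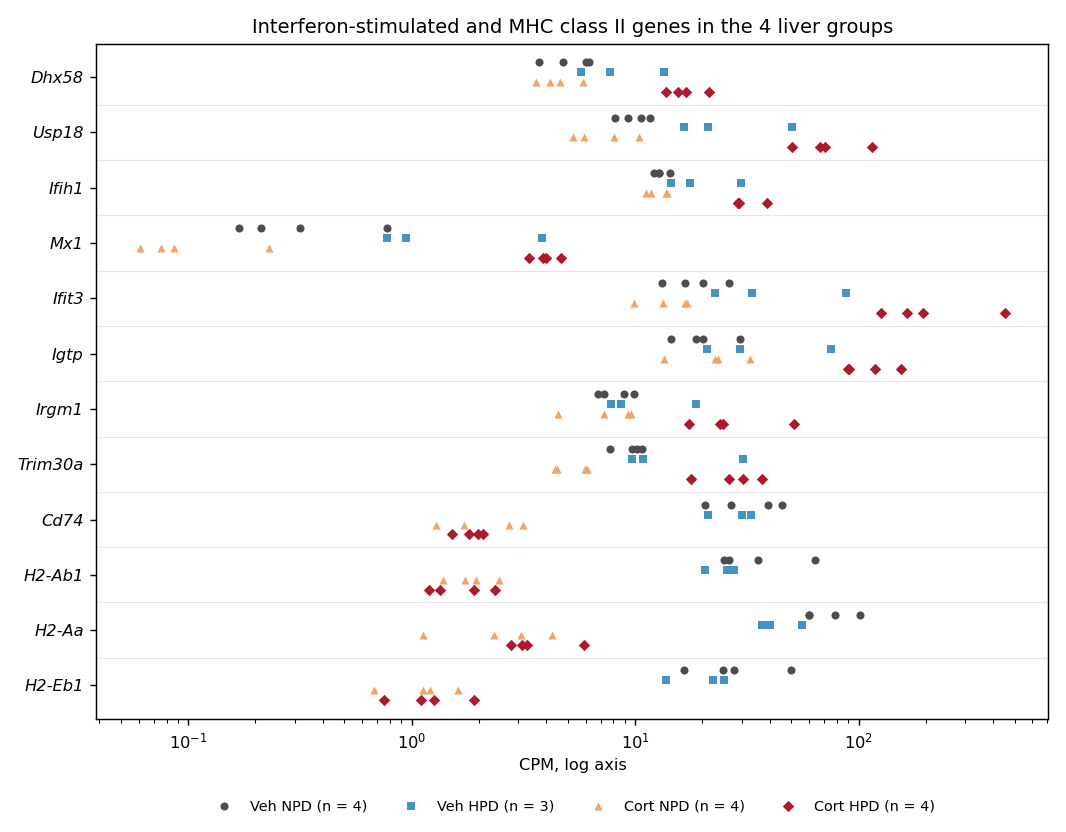
CPM in each library of the 4 liver groups (log axis, 1 point per library, 3 in Veh HPD and 4 in each other group) for 8 interferon-stimulated genes and 4 MHC class II genes. The Cort HPD points of Usp18 lie between 50.2 and 115 CPM, above all Veh NPD and Cort NPD points, while the Cort HPD points of H2-Ab1 lie between 1.19 and 2.37 CPM and overlap those of Cort NPD.

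Genes of macrophages and Kupffer cells were mostly lower, with 15 lower and 3 higher of 29 tested. Csf1r, the receptor for the macrophage growth factor CSF1, was at 39.9, 33.2, 38.1 and 29.4 CPM in the Veh NPD libraries and at 10.1, 8.19, 15.2 and 12.8 CPM in the Cort HPD libraries (log2 fold change -1.61, SE 0.22, edgeR adjusted p = 3.8e-05). Vsig4, a complement receptor of Kupffer cells, fell by 1.07 and Aif1, an actin-binding protein of macrophages, by 1.97. Among the 3 that rose was Slc40a1, which encodes the iron exporter ferroportin, at 55.4, 50.9, 59 and 68.3 CPM in the Veh NPD libraries and at 123, 161, 149.5 and 123 CPM in the Cort HPD libraries (log2 fold change 1.25, SE 0.18, edgeR adjusted p = 4e-05). The 10 Kupffer cell markers summed to 267 to 376 CPM in Veh NPD and 149 to 259.9 CPM in Cort HPD, 7 of them lower, and Cort HPD replicate 1 held the highest sum of its group. Of 34 lymphocyte genes listed, 13 had enough counts to be tested, of which 5 fell and 0 rose, against 7.42% lower among all genes. Genes this low can pass the filter through the groups where they are higher, so the direction of these counts is not independent of the filter. With no filter on low counts, 7 of 33 fell and 0 rose. Trbc2, a constant chain of the T cell receptor, was at 4.26, 2.97, 2.51 and 2.53 CPM in the Veh NPD libraries and at 0.169, 0.232, 0.535 and 0.223 CPM in the Cort HPD libraries (log2 fold change -3.37, SE 0.56, edgeR adjusted p = 0.00023). Trac, the constant region of the other chain, had 0 counts in all 4 Cort HPD libraries and 0.711, 0.955, 0.778 and 1.44 CPM in Veh NPD, at least 4.41-fold lower. The sum of 10 T and NK cell markers was 3.98 to 5.92 CPM in Veh NPD and 0.0581 to 0.764 CPM in Cort HPD. The lymphocyte count fell to 2 of 10 tested without Veh NPD replicate 2 and to 3 of 10 without Veh NPD replicate 1. Of 39 cytokine, chemokine and NF-kB genes, 6 fell and 2 rose, with 1 higher without Veh NPD replicate 1 or 3 or Cort HPD replicate 1. Nfkbia, the inhibitor that glucocorticoids are known to raise, was at 144, 229, 189 and 198 CPM in the Veh NPD libraries and at 86.1, 99.4, 97.8 and 104 CPM in the Cort HPD libraries (log2 fold change -0.97, SE 0.16, edgeR adjusted p = 0.00018), and Il1r1, the interleukin 1 receptor, fell by 1.53. The chemokine Ccl9 rose by 1.01.

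Targets of the glucocorticoid receptor were called in both directions. Of the 20 tested, 3 rose and 6 fell, with a median of -0.75, whereas in Cort NPD against the same Veh NPD libraries 3 rose and 3 fell (median 0.07). The number that fell ranged from 4 to 8 as single libraries were left out, and the median of -0.75 was -0.48 without Veh NPD replicate 2. The receptor gene Nr3c1 itself was at 42.1, 39.8, 41.9 and 52.7 CPM in the Veh NPD libraries and at 45.7, 34.3, 48.4 and 36.1 CPM in the Cort HPD libraries and did not pass the test (log2 fold change -0.1, SE 0.16, edgeR adjusted p = 0.73). Besides Lcn2, Gadd45b, a stress-response gene, rose from 0.632, 1.59, 0.605 and 0 CPM in the Veh NPD libraries to 11.3, 11.1, 9.94 and 9.42 CPM in the Cort HPD libraries (log2 fold change 3.94, SE 0.56, edgeR adjusted p = 0.00022). The classical target Fkbp5, a co-chaperone that lowers receptor sensitivity, was at 22.6, 56.4, 22.1 and 60.5 CPM in the Veh NPD libraries and at 77.5, 108, 79.8 and 112 CPM in the Cort HPD libraries. The groups did not overlap for Fkbp5, but the difference was not called (log2 fold change 1.23, SE 0.46, edgeR adjusted p = 0.1), except by DESeq2 and with only the 2 groups compared. In Cort NPD Fkbp5 was at 234, 171, 211 and 139 CPM and above the same Veh NPD libraries (log2 fold change 2.23, edgeR adjusted p = 0.0094). Tsc22d3, which encodes the glucocorticoid-induced leucine zipper, was at 64.4, 159, 71.7 and 125 CPM in the Veh NPD libraries and at 56.2, 54.2, 69.1 and 58.1 CPM in the Cort HPD libraries (log2 fold change -0.82, SE 0.3, edgeR adjusted p = 0.083), and it was called lower without Veh NPD replicate 1 (log2 fold change -1), under library totals (-0.99), by DESeq2 (-0.82) and with only the 2 groups compared (-0.83). Tat, tyrosine aminotransferase, was at 210.1, 446, 151 and 480.3 CPM in the Veh NPD libraries and at 437, 334, 332 and 369 CPM in the Cort HPD libraries (log2 fold change 0.19, SE 0.37, edgeR adjusted p = 0.79), and its Veh NPD libraries spread over more than 3-fold. The mitochondrial carrier Slc25a33 fell by 1.11.

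Of 16 tested genes of steroid receptors and local steroid metabolism, 5 fell and 2 rose. Serpina6, which encodes transcortin, the plasma carrier of glucocorticoids, was at 30.5, 44.1, 60.8 and 56.3 CPM in the Veh NPD libraries and at 9.66, 5.46, 12.3 and 9.05 CPM in the Cort HPD libraries (log2 fold change -2.4, SE 0.31, edgeR adjusted p = 7.9e-05). Srd5a1, the 5-alpha reductase that inactivates glucocorticoids, fell by 1.33 and the hydroxysteroid dehydrogenase Akr1c6 by 1.58. Hsd11b1, which regenerates active glucocorticoid, was at 485, 520.3, 418 and 585 CPM in the Veh NPD libraries and at 879, 350, 466 and 319.7 CPM in the Cort HPD libraries (log2 fold change 0.01, SE 0.23, edgeR adjusted p = 0.99). The Hsd11b1 value of Cort HPD replicate 1 was the highest of all 8 libraries, and without it the log2 fold change was -0.41.

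Acute phase proteins, which hepatocytes secrete in inflammation, included 13 higher and 6 lower genes of 32 tested, or 10 higher and 9 lower under library totals. Haptoglobin, Hp, was at 1367, 1665, 1264 and 1284 CPM in the Veh NPD libraries and at 4594, 4512, 6544 and 4104 CPM in the Cort HPD libraries (log2 fold change 1.82, SE 0.17, edgeR adjusted p = 1.1e-07). The iron hormone hepcidin, Hamp, was at 627, 690.2, 533 and 1191 CPM in the Veh NPD libraries and at 151, 109.6, 145 and 121 CPM in the Cort HPD libraries (log2 fold change -2.53, SE 0.24, edgeR adjusted p = 3.7e-07). Saa1, encoding serum amyloid A, which has near-identical copies, was at 649, 629.8, 117 and 75.9 CPM in the Veh NPD libraries and at 599.7, 75.4, 78.8 and 94.7 CPM in the Cort HPD libraries and was not called (log2 fold change -0.8, SE 0.85, edgeR adjusted p = 0.59). The list's median was 0.14 and ran from -0.07 to 0.3 as single libraries were left out, highest without Veh NPD replicate 2 and lowest without Cort HPD replicate 1, which had the highest Cort HPD level of Saa1. Complement and coagulation genes had 9 lower and 4 higher of 40. C8a fell by 1.44, C8g by 0.88 and Mbl1 by 0.83. Genes of iron, haem and metallothioneins had 8 higher and 4 lower of 27. Tfrc, the transferrin receptor, was at 9.63, 12.4, 6.23 and 12.8 CPM in the Veh NPD libraries and at 66.9, 47.8, 44.6 and 42.9 CPM in the Cort HPD libraries (log2 fold change 2.3, SE 0.28, edgeR adjusted p = 2.3e-05), and Tfrc also rose in Veh HPD against Veh NPD (log2 fold change 2.28, edgeR adjusted p = 0.0015). Hamp, Slc40a1 and Tfrc all encode regulators or carriers of iron, and Id1, a target of the same signalling as Hamp, fell by 1.76. Transcripts of red blood cells were higher at the same time. The 7 markers summed to 1389 to 2929 CPM in Veh NPD and 5269 to 7619.6 CPM in Cort HPD, while Alas2, the haem synthesis enzyme of erythroid cells, fell by 1.16. The part of blood content in the iron genes was not tested.

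Enzymes of amino acid breakdown had 13 higher and 3 lower of 55 tested, against 7.97% and 7.42% of all genes. Acmsd, which directs tryptophan carbon to complete oxidation, was at 44.1, 35.6, 29.5 and 50.1 CPM in the Veh NPD libraries and at 149, 243, 186 and 258 CPM in the Cort HPD libraries (log2 fold change 2.39, SE 0.31, edgeR adjusted p = 7.5e-05). The serine dehydratase-like enzyme Sdsl rose by 1.74 and Hgd, homogentisate dioxygenase, by 0.89. In Cort NPD 7 genes of this list were higher and 10 lower than in Veh NPD (6.84% and 5.79% of all genes), and Cort HPD liver had 9 higher and 1 lower than Cort NPD (3.08% and 2.8% of all genes). The 13 higher genes became 8 without Veh NPD replicate 2, and 6 higher beside 5 lower under library totals.

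Among genes of the urea cycle and ammonia handling, 6 of 16 rose and 1 fell. Cps1, the entry enzyme of the cycle, was at 694, 613, 761 and 826 CPM in the Veh NPD libraries and at 978, 1817, 1869 and 1742 CPM in the Cort HPD libraries (log2 fold change 1.15, SE 0.2, edgeR adjusted p = 0.00038). Replicate 1 was the lowest Cort HPD library for Cps1, and the groups did not overlap. Asl, argininosuccinate lyase, was at 153, 160.4, 132 and 196 CPM in the Veh NPD libraries and at 392, 523, 446 and 463 CPM in the Cort HPD libraries (log2 fold change 1.51, SE 0.15, edgeR adjusted p = 4.9e-07). Ass1, the enzyme before it, was at 582, 600, 571 and 639 CPM in the Veh NPD libraries and at 603, 1321, 1185 and 1318 CPM in the Cort HPD libraries (log2 fold change 0.89, SE 0.2, edgeR adjusted p = 0.0044), where replicate 1 fell within the Veh NPD range and the other 3 Cort HPD libraries lay above it. Arg1, which releases urea, rose by 0.73. Sulphur amino acid and one-carbon metabolism had 10 higher and 2 lower of 27, including Mat1a, methionine adenosyltransferase (log2 fold change 1.25), Nnmt, nicotinamide N-methyltransferase (1.86), and Ethe1, a sulphur dioxygenase (1.21). Asns, asparagine synthetase and a target of the amino acid response factor ATF4, was at 1.97, 0.636, 0.519 and 0.76 CPM in the Veh NPD libraries and at 3.22, 6.62, 4.28 and 6.45 CPM in the Cort HPD libraries (log2 fold change 2.37, SE 0.43, edgeR adjusted p = 0.00077), and 3 of 18 genes of serine synthesis and the ATF4 response rose. The 3 became 1 without Veh NPD replicate 1 or 3 or Cort HPD replicate 2, and 0 with all 16 liver libraries. Amino acid transporters had 4 higher and 0 lower of 21, with Slc3a1 and the glycine transporter Slc6a9 (1.18) among them, and 2 higher without Veh NPD replicate 1 or without Cort HPD replicate 2.

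Carbohydrate enzymes differed in a few steps. Of 21 gluconeogenic genes 6 rose and 2 fell, and of 26 genes of glycolysis and carbohydrate sensing 8 rose and 1 fell (4 and 1 under library totals). Pck1 and G6pc, of rate-setting steps, did not pass the test. Pck1, phosphoenolpyruvate carboxykinase, was at 1352, 1716, 1184 and 1542 CPM in the Veh NPD libraries and at 1527, 1420, 1152 and 1813 CPM in the Cort HPD libraries (log2 fold change 0.03, SE 0.21, edgeR adjusted p = 0.95). G6pc, glucose-6-phosphatase, was at 332, 491, 398 and 313 CPM in the Veh NPD libraries and at 253, 591, 375 and 536 CPM in the Cort HPD libraries (log2 fold change 0.2, SE 0.23, edgeR adjusted p = 0.63). Among those that rose were Tkfc, triokinase (1.51), and Slc37a4, the glucose-6-phosphate carrier of the endoplasmic reticulum (1.33). The single gene that fell among glycolysis and carbohydrate sensing was Txnip, a thioredoxin-binding protein induced by glucose, at 98.3, 95.3, 169.7 and 105 CPM in the Veh NPD libraries and at 36.5, 36.3, 38.3 and 34.9 CPM in the Cort HPD libraries (log2 fold change -1.68, SE 0.19, edgeR adjusted p = 2.3e-06). Glycogen genes had 4 higher and 1 lower of 15 (2 and 2 under library totals), with Ugp2, which makes UDP-glucose, up by 1.25 and Gbe1, the branching enzyme, by 0.73. Gcgr, the glucagon receptor, was at 60.9, 62.2, 55.1 and 50.7 CPM in the Veh NPD libraries and at 40.2, 38.7, 33.9 and 34.4 CPM in the Cort HPD libraries (log2 fold change -0.64, SE 0.13, edgeR adjusted p = 0.0021), and was 1 of 2 genes called among 28 of insulin and glucagon signalling, both lower. That is 7.14% of the list, below the 15.4% called among all genes. The count of glycolysis genes that rose was 5 without Veh NPD replicate 2, and that of glycogen genes 2 without Veh NPD replicate 1 or 2.

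Of 24 genes of lipid droplets, lipolysis and uptake, 11 fell and 3 rose, with a median of -0.58. Besides Fabp1, Fitm1, which helps form lipid droplets, fell by 2.99. The fatty acid transporter Cd36 went the other way and was at 20.5, 17, 30 and 38.9 CPM in the Veh NPD libraries and at 252, 143, 153 and 125 CPM in the Cort HPD libraries (log2 fold change 2.66, SE 0.27, edgeR adjusted p = 3.9e-06). Of 36 genes of fatty acid oxidation and ketogenesis, 11 fell and 1 rose, or 17 and 1 under library totals. Crot, which shuttles peroxisomal acyl groups, was at 407, 428, 400.1 and 282 CPM in the Veh NPD libraries and at 153, 67.7, 108 and 81.7 CPM in the Cort HPD libraries (log2 fold change -1.89, SE 0.22, edgeR adjusted p = 5.2e-06), the peroxisomal thiolase Acaa1b fell by 2.59 and Bdh1, of ketone body synthesis, by 1.33. Fatty acid and triglyceride synthesis had 5 lower and 2 higher of 28, which became 4 lower and 5 higher without Veh NPD replicate 4 and 3 lower and 1 higher without Veh NPD replicate 3, with 1 higher also without Veh NPD replicate 2 or Cort HPD replicate 2 or 4. The elongases Elovl3 and Elovl2 fell by 4.25 and 1.8, Elovl3 from 491, 465, 499.7 and 389 CPM in the Veh NPD libraries to 6.61, 19.6, 31 and 39.9 CPM in the Cort HPD libraries (edgeR adjusted p = 0.00043). Srebf1, the transcription factor of this pathway, was not called (log2 fold change -0.3, SE 0.31, edgeR adjusted p = 0.58). Fgf21, a fasting and low-protein hormone of the liver, was at 2.37, 3.71, 5.62 and 2.53 CPM in the Veh NPD libraries and at 2.63, 4.47, 2.22 and 3.12 CPM in the Cort HPD libraries (log2 fold change -0.18, SE 0.53, edgeR adjusted p = 0.87).

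Among apolipoproteins and lipoprotein assembly 6 of 22 rose and 3 fell. Apoa4 was at 243, 269, 533 and 531 CPM in the Veh NPD libraries and at 2282, 2329.6, 2093 and 1989.9 CPM in the Cort HPD libraries (log2 fold change 2.46, SE 0.25, edgeR adjusted p = 9.2e-07), Apoc3, an inhibitor of lipoprotein lipase, rose by 1.61, and Mttp, which loads lipid onto nascent particles, by 0.83. Hepatic lipase, Lipc, fell by 1.06. Bile acid genes had 8 higher and 5 lower of 28, or 6 higher and 8 lower under library totals, and 5 higher without Veh NPD replicate 1 or 2. Cyp7a1, the rate-limiting enzyme of bile acid synthesis, was at 10.1, 8.17, 16.9 and 43.8 CPM in the Veh NPD libraries and at 172, 104, 156 and 79.8 CPM in the Cort HPD libraries (log2 fold change 2.69, SE 0.67, edgeR adjusted p = 0.018), a call lost without Veh NPD replicate 1 or 2. Cyp8b1, which sets the share of cholic acid, rose by 1.08, the uptake transporter Slco1a1 fell by 1.42, Nr0b2, a repressor of bile acid synthesis, by 1.21, and Abcg8, of biliary sterol export, by 1.13. Of 25 cholesterol synthesis genes, 2 rose and 0 fell, near the 7.97% of all genes that rose, and 4 rose without Veh NPD replicate 4.

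Many liver genes differ between male and female mice, a difference that is set by the pattern of growth hormone release. Of 25 tested genes that are higher in males, 13 fell and 0 rose, with a median of -2.21, and of 9 tested genes that are higher in females, 4 rose and 0 fell, with a median of 1.72 (2.87 without Veh NPD replicate 3 and 2.8 without Veh NPD replicate 4). With all 16 liver libraries 8 of the male-biased genes fell, and with no filter on low counts 5 of 21 female-biased genes rose. All animals were male. Mup3, a major urinary protein with near-identical copies, was at 17220.1, 18355, 16641 and 20029 CPM in the Veh NPD libraries and at 5056, 3384, 3492 and 3642 CPM in the Cort HPD libraries (log2 fold change -2.21, SE 0.26, edgeR adjusted p = 6.4e-06). Sult1e1, estrogen sulfotransferase, was at 9.4, 3.18, 4.58 and 0.929 CPM in the Veh NPD libraries and at 1154, 598, 433 and 470.1 CPM in the Cort HPD libraries (log2 fold change 7.18, SE 0.68, edgeR adjusted p = 2.6e-05). Cyp17a1, a steroid hydroxylase, rose from 11.9, 19.9, 26.9 and 66.1 CPM in the Veh NPD libraries to 704, 671, 644 and 628 CPM in the Cort HPD libraries (log2 fold change 4.4, SE 0.49, edgeR adjusted p = 7.3e-05), and Fmo2 rose by 1.72. Of the growth hormone and IGF axis 7 of 20 fell and 1 rose. Ghr, the growth hormone receptor, was at 324, 345, 407 and 418 CPM in the Veh NPD libraries and at 185, 148, 236 and 165 CPM in the Cort HPD libraries (log2 fold change -1.03, SE 0.18, edgeR adjusted p = 0.00043), Socs2, a direct target of it, fell by 2.16, and Lifr, the receptor of leukaemia inhibitory factor, by 1.77. Igf1 was at 1038, 1185, 1000.1 and 1259 CPM in the Veh NPD libraries and at 1484, 792, 851 and 787 CPM in the Cort HPD libraries and was not called (log2 fold change -0.2, SE 0.19, edgeR adjusted p = 0.53). For Igf1 replicate 1 was the highest of all 8 libraries, and without it the fold change was -0.47 and was called. Igfbp1 was not called either (log2 fold change 0.03, SE 0.6, edgeR adjusted p = 0.98).

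Of 39 drug metabolism genes 17 rose and 7 fell, with 4 lower without Cort HPD replicate 2, and 11 higher and 1 lower with all 16 liver libraries. Gstt3, a glutathione transferase, was at 31.4, 26.4, 48.3 and 63.9 CPM in the Veh NPD libraries and at 259.8, 397, 277 and 391 CPM in the Cort HPD libraries (log2 fold change 2.96, SE 0.24, edgeR adjusted p = 6.3e-08), and the oxygenases Fmo1 and Fmo5 and the sulfotransferase Sult1d1 rose by 1.72, 1.61 and 1.79. Of 25 antioxidant genes that respond to the factor NRF2, 10 rose and 0 fell. Srxn1, sulfiredoxin, was at 33.5, 26.9, 30.6 and 28.6 CPM in the Veh NPD libraries and at 128, 155, 86.7 and 102 CPM in the Cort HPD libraries (log2 fold change 1.98, SE 0.26, edgeR adjusted p = 4.6e-05), Nqo1, a quinone reductase, rose by 2.26 and Gclm, of glutathione synthesis, by 0.78. Genes of the autophagy and lysosome list had 8 higher and 1 lower of 34, led by the cathepsin gene Ctsl (0.98), with 5 higher without Cort HPD replicate 2 and 3 under library totals.

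Hepatocytes express different genes along the lobule. Of 19 tested genes of periportal hepatocytes, near the incoming blood, 13 rose and 1 fell (median 0.89), and of 20 genes of pericentral hepatocytes 1 rose and 6 fell (median -0.39). The pericentral median was -0.25 without Veh NPD replicate 3, and 2 of these genes fell with all 16 liver libraries. Etnppl, a periportal enzyme of phosphoethanolamine breakdown, was at 56.2, 58.6, 49 and 82.5 CPM in the Veh NPD libraries and at 183, 309, 269 and 336 CPM in the Cort HPD libraries (log2 fold change 2.15, SE 0.19, edgeR adjusted p = 9.5e-08). The pericentral oxidase Cyp2e1 was at 1189.7, 1629.8, 1645 and 1525 CPM in the Veh NPD libraries and at 655, 578, 669.8 and 968 CPM in the Cort HPD libraries (log2 fold change -1.06, SE 0.19, edgeR adjusted p = 0.00041), and the pericentral gene Rgn fell by 1.55. Several periportal genes of the list, such as Asl and Cyp17a1, belong to pathways already described, so these counts are not independent of them.

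Of 29 genes of the unfolded protein response 6 fell and 1 rose, among them Herpud1 (-1.25), a degradation factor of the endoplasmic reticulum, and Xbp1 (-1.1), its transcription factor, and the 6 lower genes became 2 when Cort HPD replicate 1 was left out and 3 when replicate 2 of either group was. Of 33 extracellular matrix genes 4 fell and 0 rose (12.1% called, against 15.4% of all genes). Cort NPD had 9 of them higher and 1 lower than Veh NPD, where 6.84% and 5.79% of all genes were, and Cort HPD had 11 lower and 0 higher than Cort NPD, where 2.8% and 3.08% were. Of 26 cell cycle genes 4 rose and 2 fell, with Ccnd1, cyclin D1, down by 2.15, and 2 rose without Veh NPD replicate 2 or 3 or Cort HPD replicate 2, 3 or 4. Of 23 clock genes 2 rose and 0 fell, or 8.7% called against 15.4% of all genes. These counts became 0 and 1 without Veh NPD replicate 1 and 1 and 0 without Veh NPD replicate 2 or Cort HPD replicate 1, 2 or 4. Of 34 respiratory chain genes 1 rose (2.94%), and from 0 to 2 did as single libraries were left out. The clock genes Per1 (log2 fold change -0.86, SE 0.32, edgeR adjusted p = 0.076) and Dbp (log2 fold change 0.52, SE 0.57, edgeR adjusted p = 0.61) were not called, though Per1 was called lower without Veh NPD replicate 1 (log2 fold change -1.14), under library totals (-1.01) and by DESeq2 (-0.86).

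**Figure D4:**
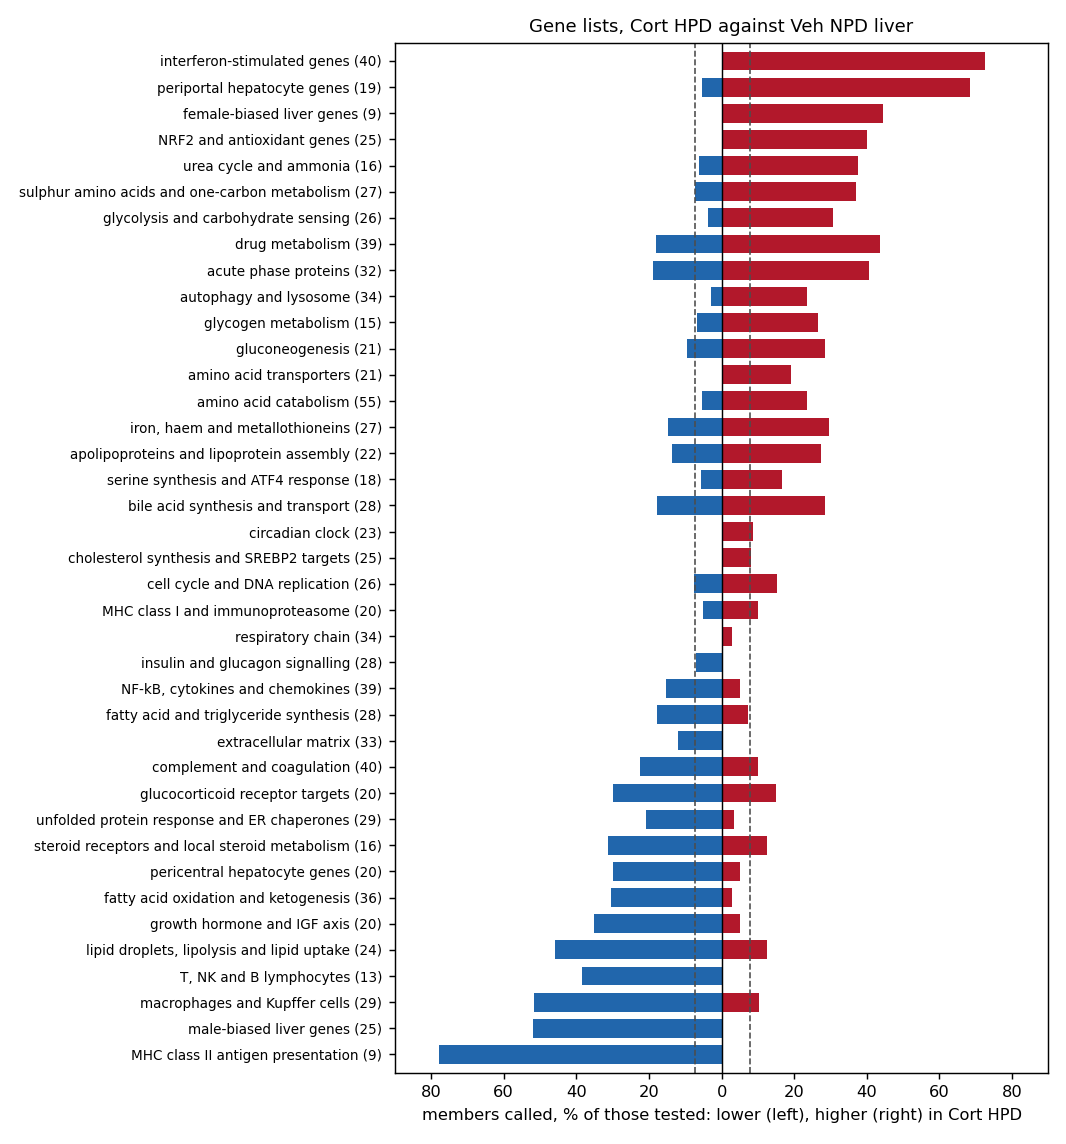
Share of the tested members of each of 39 gene lists (number tested in brackets) that were called lower (bars to the left) or higher (bars to the right) in Cort HPD against Veh NPD liver, in percent, with dashed lines at the shares among all genes tested (7.42% and 7.97%). Interferon-stimulated genes, with 29 of 40 higher, stand at the top, and MHC class II genes, with 7 of 9 lower, at the bottom.

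Markers of other cells and tissues were examined on the same libraries. The 10 endothelial markers summed to 198 to 244 CPM in Veh NPD and 162 to 171 CPM in Cort HPD, with 3 lower and 0 higher. The 9 adipocyte markers summed to 2837 to 4451 CPM in Veh NPD and 199.6 to 425 CPM in Cort HPD, of which Car3, a gene that hepatocytes also express, made up most, while Adipoq, the defining adipocyte gene, did not exceed 3.47 CPM in any of the 8 libraries. Of 8 intestinal markers 5 were at 0 in all 8 libraries, and the sum was set by Tff3, a trefoil factor, which rose by 2.75 on the log2 scale (edgeR adjusted p = 0.0068). The 12 pancreatic markers summed to 43.2 to 82.6 CPM in Veh NPD and 17.2 to 25.5 CPM in Cort HPD, most of it from Cela1. Gall bladder and bile duct epithelium had 7 markers, which summed to 114 to 148 CPM in Veh NPD and 171 to 207 CPM in Cort HPD, with 1 higher and 0 lower. Cholangiocyte markers summed to 32.3 to 48.5 and 48.4 to 59.9 CPM in the same order, with 1 higher and 0 lower. Stellate cell and fibroblast markers summed to 388 to 458 and 298 to 423 CPM, with 1 higher and 1 lower.

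Cort HPD liver was then compared with cort alone and with the HPD alone. Against Cort NPD 729 genes were called, 382 higher (3.08% of those tested) and 347 lower (2.8%). The count was 356 without Cort NPD replicate 3, and 497, 573 and 491 without Cort NPD replicates 1, 2 and 4. In Cort NPD replicate 3 the 8 skeletal muscle markers summed to 568 CPM, against 1.85 to 6.98 CPM in the rest of its group. The part of muscle RNA in these counts was not tested. Against Veh HPD 1226 genes were called (9.89%), and 714 without Veh HPD replicate 1. Veh HPD replicate 1 was also the highest of its group for each interferon-stimulated gene described. Each exposure alone was set against the shared Veh NPD libraries, where Cort NPD had 1565 called genes (12.6%) and Veh HPD 21 (0.169%).

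The 6 higher and 6 lower genes with the smallest p-values against Cort NPD were then set beside the other groups. Hsd17b6 (ENSMUSG00000025396, chromosome 10 from 127990936 to 128007611), an oxidoreductase of androgen and retinol metabolism, was at 9.15, 17.8, 9.76 and 10.3 CPM in Cort NPD, at 144, 104, 87.3 and 126 CPM in Cort HPD and at 183, 221, 116 and 149 CPM in Veh NPD. It was higher than in Cort NPD (log2 fold change 3.3, SE 0.27, edgeR adjusted p = 2.9e-06) and did not pass the test against Veh NPD (edgeR adjusted p = 0.16), except under library totals (log2 fold change -0.74). In Cort NPD it was lower than in Veh NPD (log2 fold change -3.83, edgeR adjusted p = 3.7e-08), whereas the Cort HPD and Veh NPD libraries overlapped. Ugdh, which makes UDP-glucuronate, was at 78.2 ± 23.9 CPM in Cort NPD, 53.5 ± 2.37 CPM in Veh NPD and 242 ± 27.1 CPM in Cort HPD (SD, n = 4; log2 fold change 1.63, SE 0.19, edgeR adjusted p = 2.2e-05 against Cort NPD). Ugt2b35, a glucuronosyltransferase, was at 56.2 ± 10.6, 66.1 ± 4.05 and 157 ± 23.5 CPM in the same order. Defb1, Apol9b, an apolipoprotein L gene with a close copy, and Shisa5, an apoptosis regulator of the endoplasmic reticulum, were higher than in Cort NPD by 2.05, 2.36 and 1.55 on the log2 scale.

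On the lower side, Txnip was at 94.3, 122, 116 and 89.4 CPM in Cort NPD and so within or below its Veh NPD range, and at 36.5, 36.3, 38.3 and 34.9 CPM in Cort HPD (log2 fold change -1.53, SE 0.19, edgeR adjusted p = 4.5e-05). Csad, the decarboxylase of taurine synthesis, was at 152 ± 38.5 CPM in Cort NPD, 50.8 ± 9.85 CPM in Cort HPD and 97.8 ± 15.1 CPM in Veh NPD (SD, n = 4), and at 24.6 ± 2.43 CPM in Veh HPD (SD, n = 3). Csad was lower in Cort HPD than in Cort NPD (log2 fold change -1.58, SE 0.18, edgeR adjusted p = 2.2e-05) and lower in Veh HPD than in Veh NPD (log2 fold change -1.99, edgeR adjusted p = 3e-05). Slc22a7 was at 8.23, 4.83, 5.75 and 5.16 CPM in Cort NPD, above all Cort HPD libraries (log2 fold change -3.51, SE 0.4, edgeR adjusted p = 2.2e-05). Cyp2d40, a cytochrome P450 of a family of close copies, Mylk, myosin light chain kinase, and the transcript Gm17634 were lower, with log2 fold changes of -1.53, -1.14 and -1.15, and of these Mylk did not pass the test against Veh NPD (log2 fold change -0.38, SE 0.14, edgeR adjusted p = 0.068). It was called lower there without Cort HPD replicate 4 (log2 fold change -0.46), under library totals (-0.56), by DESeq2 (-0.38) and with libraries thinned to the shallowest total (-0.43).

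**Figure D5:**
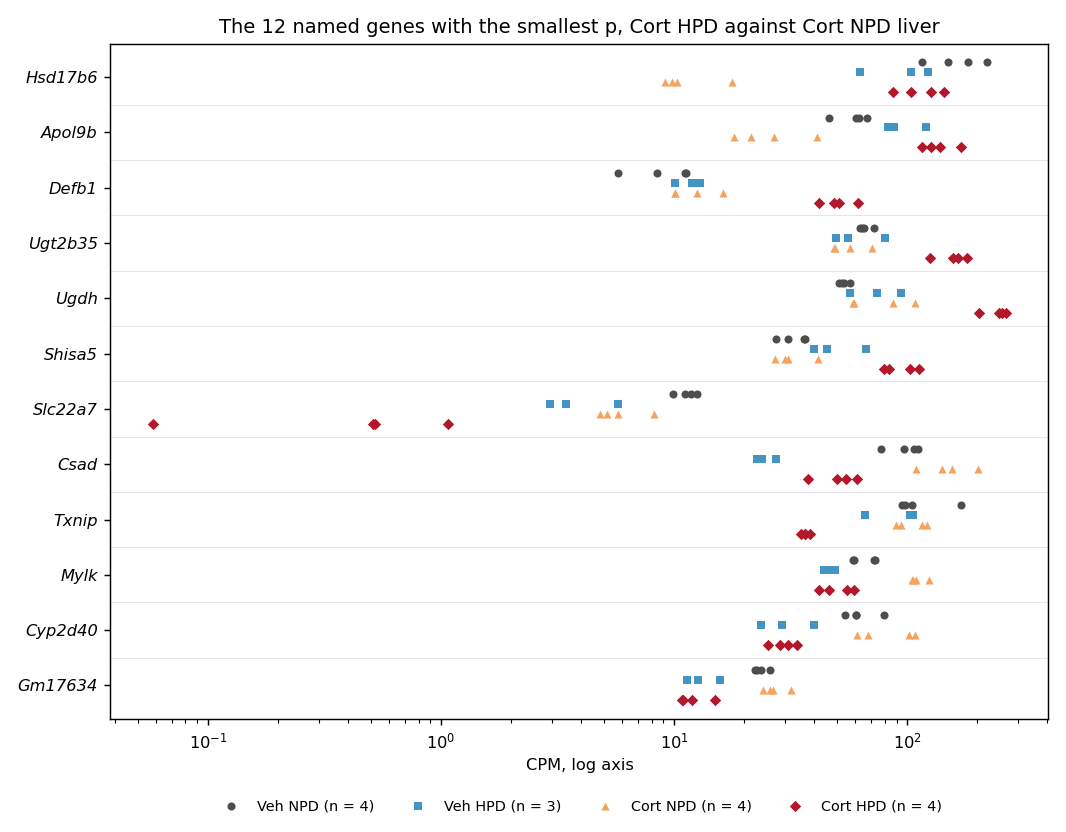
CPM in each library of the 4 liver groups (log axis, 1 point per library, 3 in Veh HPD and 4 in each other group) for the 6 higher and 6 lower genes with the smallest p-values in Cort HPD against Cort NPD. Hsd17b6 lies between 87.3 and 144 CPM in Cort HPD and between 116 and 221 CPM in Veh NPD, with all Cort NPD points far below, whereas Txnip lies at 34.9 to 38.3 CPM in Cort HPD, below every other library.

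The interaction of diet and cort, which asks whether the effect of cort differed between the diets, was called for 14 genes (0.113%), with 1497 at an unadjusted p-value under 0.05. The largest was Hsd17b6 (difference in log2 fold change 4.09, SE 0.38, edgeR adjusted p = 4.1e-05). Defb1 (1.71, SE 0.3, edgeR adjusted p = 0.035), Ugt2b35 (1.58, SE 0.25, edgeR adjusted p = 0.012) and Apol9b (1.65, SE 0.31, edgeR adjusted p = 0.044) also passed. The other called genes, named here because of that call, were Oas1c, Tnfsf10 and Slc22a30, with a positive interaction, and Timp2, Igf2r, Ppm1l, Gne, Chst15, Lpp and Grn, with a negative one. Grn, progranulin, was at 251 ± 39.9 CPM in Cort NPD, 173 ± 26.9 CPM in Cort HPD and 95.2 ± 7.33 CPM in Veh NPD (SD, n = 4). Oas1c, an interferon-related gene, was at 3.24 ± 0.92 CPM in Cort HPD against 0.562 ± 0.23 CPM in Cort NPD (SD, n = 4). The number of interaction calls ranged from 2 to 39 as single libraries were left out, highest without Veh HPD replicate 1. By DESeq2 it was 125 and by limma voom 7.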

How the data were processed

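RNA of liver was measured with the QuantSeq 3′ kit. The table deposited by the authors holds unnormalized counts for Ensembl genes, with a separate column for each replicate, and every column matched a label. The submitters' processing notes name the build GRCm38 (mm10), R 4.0.3 and limma. The aligner, the counting program and the handling of strand are not given in the sources used here, so reads of overlapping genes and near-identical copies may be split. The labels number replicates but tie no library to a named animal, and p-values measure the spread between these libraries. Of 47643 gene IDs, 47224 had a symbol and position in GENCODE M21.

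The 15 liver libraries left after the study's removal of Veh HPD replicate 4 were fitted together in R 4.3.3 with edgeR 4.0.16, with 1 mean per group, filterByExpr (minimum count 10, minimum total count 15), TMM factors, robust dispersions (biological coefficient of variation 0.228) and the quasi-likelihood test. P-values were adjusted by Benjamini-Hochberg over all genes tested, with a threshold of 0.05. Where all libraries of a group had 3 or fewer counts of a gene, the fold was computed against 3 counts per library as a bound that covers counting error only. Principal components used log2 CPM with a prior count of 2. Alternatives were RLE factors, totals without TMM factors, DESeq2 1.42.0, limma 3.58.1 voom, no filter, all 16 libraries, only the 2 groups compared, the replicate number as a block, each library left out, and libraries thinned to the shallowest total, the last chosen after seeing the data. On simulated counts for 12051 genes of Cort HPD against Veh NPD, edgeR recovered 62% of genes changed by 1 and 94% of those changed by 2 on the log2 scale, with 2.5% false calls. For the interaction it recovered 19% and 81%, with 4.76% false calls. The simulation gave all genes the same spread, changed 100 genes at each size and held no outlying library. These rates therefore need not hold for the measured libraries.

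Genes were named by a rule. It took the 10 in each direction with the smallest p-values among called genes without overlap, the 6 in each direction with the smallest p-values against Cort NPD, up to 4 per list with the smallest p-values, and 19 genes of glucocorticoid, metabolic and immune interest. Some genes that the rule takes are not reported here. The promoter examples, the genes with a called interaction, Alb, Gm42418 and the marker genes named outside this rule were chosen after their values were seen. The 39 lists and 14 marker lists were written from general knowledge, and 1218 of 1222 entries matched a gene ID. The comparison, the lists and the tests were chosen with earlier results of these data known.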

Additional observations from a re-analysis of the deposited data

Results flagged for a closer look

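With 284 sets of 4 libraries examined (142 genes in Veh NPD and in Cort HPD), 25 held a library whose gap to the nearest other exceeded Dixon's critical share of the whole range, where chance gives about 14. Of these, 10 concerned Cort HPD replicate 1. In that library Saa1 was at 599.7 CPM against 75.4 to 94.7 in the other 3, Igf1 at 1484 against 787 to 851, Mup3 at 5056 against 3384 to 3642, Slc3a1 at 162 against 99 to 106, Ifih1 at 38.9 against 28.8 to 29.1, Tnfsf10 at 11.3 against 6.8 to 7.2, H2-Aa at 5.93 against 2.79 to 3.29 and Hgd at 656 against 600.1 to 607. It was below the others for Cps1 at 978 against 1742 to 1869 CPM and Nr0b2 at 11.9 against 15.6 to 15.9. All 124 named genes that were called in Cort HPD against Veh NPD were also called without this library.

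Elsewhere in Cort HPD, replicate 3 stood apart for Nnmt (419.7 against 554 to 573 CPM), Nqo1 (11.5 against 7.73 to 8.23), Igf2r (20.6 against 18.8 to 19.1) and Lpp (24.1 against 16.6 to 17.9), and replicate 2 for Ppm1l (12.9 against 10.8 to 11 CPM). In Veh NPD, replicate 4 stood apart for Nqo1 (4.22 against 0.79 to 1.3 CPM), Erap1 (18.5 against 12.7 to 13.7), Fmo5 (406 against 285 to 296) and Rasl10b, where its 1 count (0.0845 CPM) was the only one of the group. Replicate 3 of Veh NPD stood apart for Txnip (169.7 against 95.3 to 105 CPM), Mttp (98.2 against 70.2 to 70.5), Akr1c6 (1137 against 1389 to 1412) and Tnfsf10 (3.29 against 2.53 to 2.61). Replicate 1 did so for Asns (1.97 against 0.519 to 0.76 CPM) and Chst15 (4.19 against 7.27 to 7.74).

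The effect of cort differed between the diets for 14 genes by edgeR's interaction test, and the values are the log2 effect of cort on the HPD minus that on the NPD. It was positive for Hsd17b6 (4.09, edgeR adjusted p = 4.08e-05), Oas1c (3.15, edgeR adjusted p = 0.044), Tnfsf10 (1.99, edgeR adjusted p = 0.0499), Defb1 (1.71, edgeR adjusted p = 0.0355), Apol9b (1.65, edgeR adjusted p = 0.044), Ugt2b35 (1.58, edgeR adjusted p = 0.012) and Slc22a30 (1.13, edgeR adjusted p = 0.044). It was negative for Chst15 (-1.68, edgeR adjusted p = 0.0355), Lpp (-1.42, edgeR adjusted p = 0.044), Timp2 (-1.24, edgeR adjusted p = 0.0499), Grn (-1.16, edgeR adjusted p = 0.044), Igf2r (-1.10, edgeR adjusted p = 0.0499), Ppm1l (-1.06, edgeR adjusted p = 0.0499) and Gne (-1.03, edgeR adjusted p = 0.0499).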

How the results depend on the processing

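Of the 124 named genes called in Cort HPD against Veh NPD, 108 kept their call and direction in every one of 16 or 17 alternatives, and the others are B2m, Cyp7a1, Igf2r and Slc22a30, which lost it without single libraries (B2m and Igf2r also under library totals, B2m and Slc22a30 with all 16 liver libraries, and Igf2r with no filter and when thinned), and Alas2, Asns, C8a, C8g, Csad, Cyp2d40, Cyp2e1, Cyp8b1, Gne, Mup3, Slco1a1 and Srxn1, which lost it when all 16 liver libraries were fitted. For Slc22a30 this was without Cort HPD replicate 2 (-0.46), and for Igf2r without Veh NPD replicate 1 (0.47) or 2 (0.44) or Cort HPD replicate 3 (0.47). With all 16 libraries the counts of higher genes were 5 for NRF2, bile acid and autophagy genes, 2 for glycogen genes and amino acid transporters, 1 for cell cycle genes and 0 for clock genes, and those of lower genes 4 for complement and coagulation and 3 for bile acids. The 987 higher and 920 lower genes ranged from 697 to 985 and from 695 to 1029 as single libraries were left out, and were 539 and 1500 under library totals without TMM factors. Against Cort NPD the 729 genes were 371 with all 16 libraries and 356 to 623 with single libraries left out, lowest without Cort NPD replicate 3. Against Veh HPD the 1226 genes were 714 to 1113, lowest without Veh HPD replicate 1. Cort NPD against Veh NPD gave 997 in place of 1565 with all 16 libraries. Veh HPD against Veh NPD, with 21, gave 111 by DESeq2, 56 with no filter, 7 with all 16 libraries, 9 when thinned, and 5 (without Veh NPD replicate 2 or 3) to 34 (without Veh HPD replicate 3) with single libraries left out. The interaction, with 14, gave 9 with RLE factors, 23 under library totals, 125 by DESeq2, 7 by limma voom, 72 with no filter, 1 with all 16 libraries, and 2 (among others without Veh NPD replicate 1) to 39 (without Veh HPD replicate 1). The cause of these shifts was not tested. Directions turned only for 6 named genes that were not called. Hsd11b1 had log2 fold changes of -0.24 under library totals, -0.1 by limma voom, -0.04 with the replicate block, 0 with only the 2 groups, -0.01 when thinned, and -0.41 to 0.17 with single libraries left out. Igfbp1 had -0.11 under library totals, -0.04 by limma voom and -0.29 to 0.25 with single libraries left out, and Pck1 -0.15 and -0.08 to 0.13. Fgf21 ran from -0.42 to 0.14, Srebf1 from -0.45 to 0.05 and Tat from -0.05 to 0.45 in the same way.

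Same-numbered Veh NPD and Cort HPD libraries did not deviate together (correlations of 0.09, 0, 0.16 and -0.06). These values showed no pairing by replicate number, but with 4 libraries per group they cannot exclude it. With the replicate block 900 genes were higher and 857 lower, and it changed no call of a named gene. Depth limits genes with few counts, such as Trac and Rasl10b, and the groups differ in depth, but thinning all libraries to the shallowest total gave 903 higher and 873 lower genes.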
